A study of Mus musculus with 4 samples.

Results

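The 3 TGF-beta ligand genes (Tgfb1, Tgfb2 and Tgfb3), the 3 receptor genes (Tgfbr1, Tgfbr2 and Tgfbr3) and the 3 SMAD genes that carry the TGF-beta signal (Smad2, Smad3 and Smad4) were followed in EO771 cells. These 9 genes were listed by name, and each was read by the probe set that the platform annotation assigns to it alone. All 9 had exactly 1 such probe set, among 22180 genes with at least 1. EO771 is a mouse mammary carcinoma cell line. Both groups were grown for 24 hours, to 70% confluence or more. The A-FABP group (2 arrays) then received mouse recombinant adipose fatty acid binding protein, the product of Fabp4, at 100 ng/ml, and the control group (2 arrays) received PBS. The labels do not state how long the exposure lasted. By their titles the arrays of a group are biological replicates. Nothing states whether the cultures were started separately, so p-values measure the spread between these arrays, moderated by the spread over all probe sets. The 2 control arrays carry a description that mentions A-FABP, and they were taken as controls from their titles, their source names and the series design.

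TGF-beta is secreted in a latent complex and must be released before it can bind. The active ligand brings together a type II receptor (Tgfbr2) and a type I receptor (Tgfbr1), both kinases, while Tgfbr3 (betaglycan) is a co-receptor that presents the ligand. The type I receptor phosphorylates SMAD2 and SMAD3, which join SMAD4 and enter the nucleus to act on target genes. In mammary epithelium the pathway is known to restrain growth, and in carcinoma cells it is known for its part in invasion.

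Values are log2 signals after RMA. A signal depends on the probes, so signals were compared between arrays for 1 gene and not between genes. In bulk cultures, fewer cells expressing a gene and less RNA per cell cannot be told apart. Array medians lay between 5.95 and 6.03, and all 9 members had a mean above them, from 6.42 to 11.53. Fabp4 lay at 13.33 and 13.29 with A-FABP and at 13.20 and 13.18 with PBS. Of 9 measured epithelial markers, 4 had a mean above the highest array median. Among these Krt8, a keratin of simple epithelia, lay between 8.74 and 8.85, while Epcam, an epithelial adhesion gene, lay below the array medians at 4.45 to 5.05. Of 8 fibroblast markers, 5 had a mean above that median, led by the growth factor receptor genes Pdgfra (11.16 to 11.22) and Pdgfrb (9.67 to 9.88), while Col1a2, Lum and Fap lay below the array medians. Of the 5 endothelial and 5 adipocyte markers, 1 and 2 had a mean above the highest array median.

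None of the 9 members was called. In the limma fit over 41345 probe sets, 0 of 9 passed a Benjamini-Hochberg adjusted p under 0.05, as did 0% of all genes. At an unadjusted p under 0.05 there were also 0 of 9, where 13.0% of all genes passed, 4.81% higher and 8.24% lower with A-FABP. Differences are A-FABP minus PBS on the log2 scale and ran from -0.01 to 0.29, with a median of 0.02, beside a median of -0.01 over all genes. Standard errors, intervals and p-values use limma's moderated variance, which joins the spread of a gene's own arrays with that over all probe sets. Smad4, with group standard deviations of 0.006 and 0.009, thus had a standard error of 0.076. For 7 of the 9 the 95% interval of the difference lay wholly inside 1.5-fold in either direction, as it did for 72.0% of all genes. Over these 7 the intervals reached from -0.25 to 0.36 (0.84-fold to 1.29-fold). The remaining 2, Tgfb3 and Tgfbr1, had intervals that passed 1.5-fold on the higher side. With 2 arrays in each group, 0.33 is the smallest two-sided p of an exact permutation test.

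**Figure D1:**
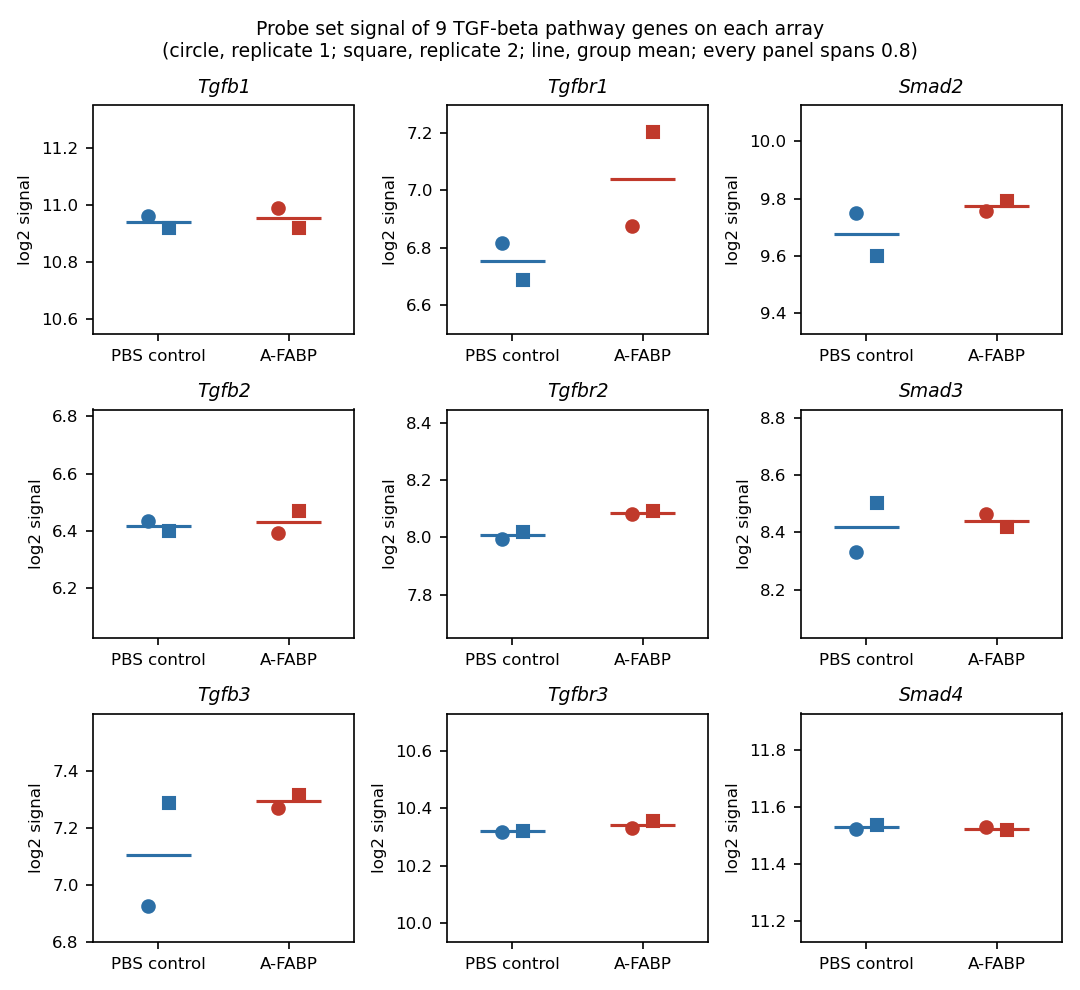
Log2 signal (vertical axis, the same span of 0.8 in each panel) of the 9 genes on the 2 PBS control and 2 A-FABP arrays, with circles for replicate 1, squares for replicate 2 and a line at each group mean. Tgfbr1 has the widest gap between group means, 6.75 against 7.04, with 1 A-FABP array at 6.88 close to the controls, and in Tgfb3 1 control array at 6.93 stands apart from the other three.

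Among the ligands, Tgfb1 and Tgfb2 differed by less than the spread between replicates. Tgfb1, the main isoform of immune and stromal tissue, lay at 10.99 and 10.92 with A-FABP and at 10.96 and 10.92 with PBS. The groups overlapped, and the difference was 0.01 ± 0.08 (SE, 2 arrays per group, 95% interval -0.21 to 0.24, limma adjusted p = 0.946). Tgfb2, an isoform that needs the co-receptor Tgfbr3 for strong binding, lay at 6.39 and 6.47 with A-FABP and at 6.43 and 6.40 with PBS. Its groups also overlapped, with a difference of 0.01 ± 0.08 (-0.21 to 0.24). Tgfb3, an isoform raised during mammary involution, lay at 7.27 and 7.32 with A-FABP and at 6.93 and 7.29 with PBS. Only control replicate 1 was low, and control replicate 2 lay between the A-FABP arrays. The Tgfb3 difference was 0.19 ± 0.15 (-0.23 to 0.61, limma adjusted p = 0.579). Without control replicate 1 it was 0.01, and without control replicate 2 it was 0.37.

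To show the start regions behind these transcripts, the 250 bases before an annotated start are printed for 2 ligand genes that stayed close to 0, for the receptor gene with the largest difference and for Id2, a target gene described further on. RefSeq lists 2 starts for Tgfbr1, and the one nearest the gene's 5′ end was taken. The sequences are RefSeq's (GRCm38.p6), which matched 5 of the 9 members, and run 5′ to 3′ on the gene's strand. Capitals mark 4 motifs searched on both strands, which do not overlap one another here: the TATA box TATAAA, the GC box GGGCGG bound by Sp1, the SMAD box CAGAC, and the half-site TGACG of the cyclic AMP response element.
Tgfb1, chr7:25686752-25687001, plus strand: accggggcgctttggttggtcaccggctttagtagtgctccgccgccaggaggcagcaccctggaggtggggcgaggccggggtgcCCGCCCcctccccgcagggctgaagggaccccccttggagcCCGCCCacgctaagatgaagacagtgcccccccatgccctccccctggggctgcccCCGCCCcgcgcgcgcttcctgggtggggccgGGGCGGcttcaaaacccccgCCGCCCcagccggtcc
Tgfb2, chr1:186705990-186706239, minus strand: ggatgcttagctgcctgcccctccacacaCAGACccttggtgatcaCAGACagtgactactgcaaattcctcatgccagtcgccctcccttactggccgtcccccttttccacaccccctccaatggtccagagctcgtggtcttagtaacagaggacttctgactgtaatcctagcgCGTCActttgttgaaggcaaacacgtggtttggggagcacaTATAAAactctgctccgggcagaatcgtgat
Tgfbr1, chr4:47352972-47353221, plus strand: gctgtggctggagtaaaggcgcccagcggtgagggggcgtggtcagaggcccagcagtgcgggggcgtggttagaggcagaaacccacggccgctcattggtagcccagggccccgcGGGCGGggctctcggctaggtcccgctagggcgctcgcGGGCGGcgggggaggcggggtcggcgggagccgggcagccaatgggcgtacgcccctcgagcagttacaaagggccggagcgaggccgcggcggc
Id2, chr12:25096093-25096342, minus strand: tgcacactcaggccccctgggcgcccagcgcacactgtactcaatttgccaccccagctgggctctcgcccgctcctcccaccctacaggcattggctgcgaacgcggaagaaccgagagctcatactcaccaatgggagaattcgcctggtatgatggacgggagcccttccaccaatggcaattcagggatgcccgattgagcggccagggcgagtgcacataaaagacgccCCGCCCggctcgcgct

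The Tgfb1 window held 5 GC boxes and 75.2% G and C, and Tgfbr1 held 2 GC boxes and 74.8%. The Tgfb2 window was unlike them, with 53.6% G and C, a TATA box from 31 to 26 bases before the start, 2 SMAD boxes and 1 half-site. Id2 held 1 GC box. Of 32851 windows of this length in the RefSeq table, 12.4% held the TATA box, 32.7% the GC box, 42.2% the SMAD box and 17.8% the half-site. A match is a description of the sequence and was not tested against binding or against the differences between groups.

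Among the receptor genes, Tgfbr1 had the largest difference of the 9 members, and Tgfbr2 and Tgfbr3 had close replicates. Tgfbr1, the type I receptor kinase, lay at 6.88 and 7.21 with A-FABP and at 6.82 and 6.69 with PBS. The lower A-FABP array was still above the higher control, but the gap between the A-FABP arrays (0.33) was wider than the difference of group means. That difference was 0.29 ± 0.15 (SE, 95% interval -0.12 to 0.70, 1.22-fold, limma adjusted p = 0.423). It was 0.12 without A-FABP replicate 2 and 0.45 without A-FABP replicate 1. In that last fit the limma p was 0.0371 unadjusted and 0.371 adjusted, with a single A-FABP array assumed to vary like the 2 controls. Tgfbr2, the ligand-binding type II receptor, lay at 8.08 and 8.09 with A-FABP and at 7.996 and 8.020 with PBS. The groups did not overlap, and the difference was 0.08 ± 0.08 (-0.14 to 0.29). Tgfbr3 lay at 10.33 and 10.36 with A-FABP and at 10.32 in both controls. Its A-FABP arrays also lay above the controls, by a difference of 0.02 ± 0.08 (-0.19 to 0.24).

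The SMAD genes lay close to 0. Smad2 lay at 9.76 and 9.79 with A-FABP and at 9.75 and 9.60 with PBS, a difference of 0.10 ± 0.09 (-0.16 to 0.36). The groups did not overlap, but A-FABP replicate 1 and control replicate 1 were 0.01 apart on this scale, and the difference was 0.03 without control replicate 2. Smad3 lay at 8.46 and 8.42 with A-FABP and at 8.33 and 8.50 with PBS, a difference of 0.02 ± 0.10 (-0.25 to 0.30). Both A-FABP arrays fell between the controls. Smad4, the partner shared with the bone morphogenetic protein (BMP) branch, lay at 11.53 and 11.52 with A-FABP and at 11.52 and 11.54 with PBS. Its difference was -0.01 ± 0.08 (-0.22 to 0.21), with overlapping groups and the highest adjusted p of the 9 (0.980).

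**Figure D2:**
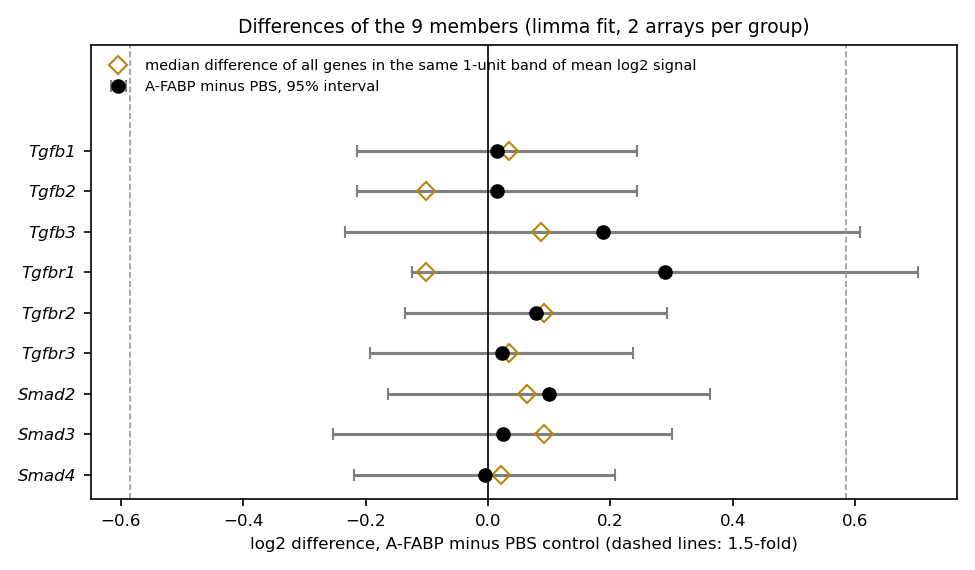
Log2 difference, A-FABP minus PBS control (horizontal axis), of the 9 genes with 95% intervals from the limma fit (black), beside the median difference of all genes in the same band of mean signal (open diamonds), with dashed lines at 1.5-fold. Every interval includes 0, and those of Tgfb3 and Tgfbr1 pass the dashed line on the higher side.

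In 4 of the 9 members, Tgfbr1, Tgfbr2, Tgfbr3 and Smad2, the A-FABP arrays were both higher than either control (44.4%), and in 0 of 9 lower. Over all genes 53.5% had groups that did not overlap, 26.0% with A-FABP higher and 27.5% with A-FABP lower. As deposited, 8 of the 9 differences were above 0, as were 47.6% of all genes. This sign rested on the scaling for 5 members. Tgfb1, Tgfbr3 and Smad3 lay below 0 after cyclic loess, Tgfbr3 and Smad3 after repeated quantile normalization, and Smad4 above 0 after median centring. With the trend on signal level removed, Tgfb1, Tgfbr2, Tgfbr3 and Smad3 lay below 0. Differences followed the signal level over all genes, with medians of -0.10 for genes with a mean between 6 and 7, 0.09 between 7 and 8, 0.09 between 8 and 9, and 0.06 between 9 and 10. Tgfbr2, at 0.08, and Smad2, at 0.10, lay within 0.04 of the median of their band. Tgfbr1 lay at 0.29 in a band with a median of -0.10, and at 0.30 with the trend on signal level removed. Whether the trend with level enters the members' differences was not tested beyond these values.

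**Figure D3:**
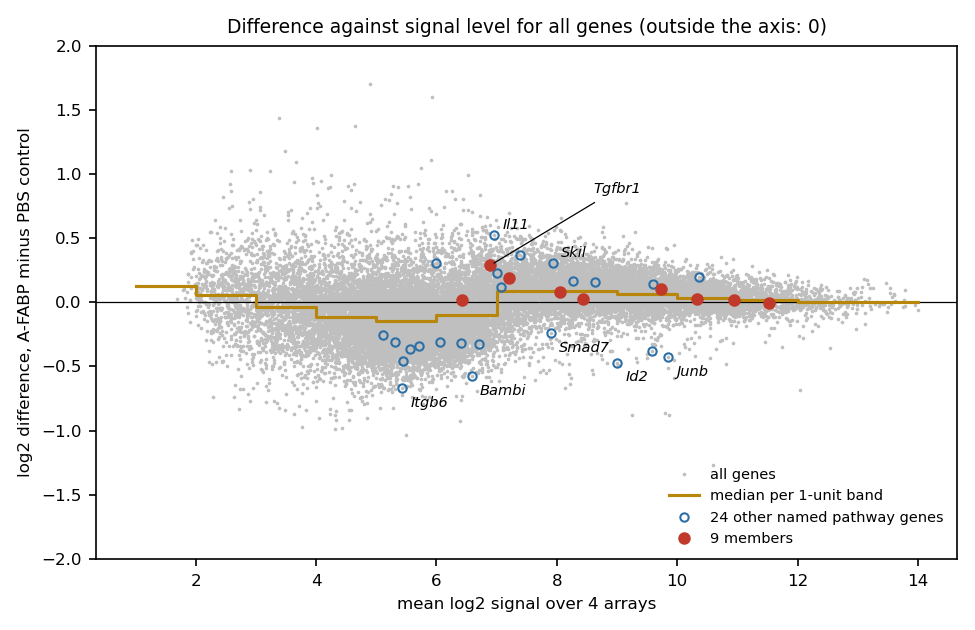
Log2 difference, A-FABP minus PBS control (vertical axis), against mean log2 signal (horizontal axis) for 22180 genes (grey), with the median per band (line), the 9 members (filled) and 24 other named pathway genes (open). The members lie between -0.01 and 0.29, while the other named genes, picked for low p-values, run from -0.67 for Itgb6 to 0.52 for Il11.

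The genes most like Tgfbr1 over the 4 arrays, by Euclidean distance of values centred on each gene's mean among 12536 genes with a mean above the median of all probe sets, were Zfp617 (distance 0.02), Rpp40 (0.02) and Ust (0.04). In all, 72 genes lay within 0.1 of Tgfbr1.

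Genes around the 9 members were read from 5 lists. Over these lists, 97 distinct genes with a probe set of their own were analysed. In the limma fit 0 of 97 passed the adjusted threshold, where 0% of all genes did. At an unadjusted p under 0.05, 13 were lower (13.4%) and 4 higher (4.12%), beside 8.24% and 4.81% of all genes. The median over the 97 was -0.02, beside -0.01 for all genes. With 1 array left out the lower count was 12 without A-FABP replicate 1, 7 without A-FABP replicate 2 or control replicate 1, and 4 without control replicate 2. The higher count was 3 without A-FABP replicate 1 and 1 in each of the other fits. Since none was called, the genes that follow are described by their values. Their limma adjusted p-values ran from 0.296 to 0.528.

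Latent complex and ligand activation genes had a median difference of -0.07 over 19. At the unadjusted threshold 3 were lower (15.8%) and 1 higher (5.26%), beside 8.24% and 4.81% of all genes. Itgb6, which encodes the epithelial integrin subunit that releases latent TGF-beta, lay at 5.11 and 5.07 with A-FABP and at 5.78 and 5.75 with PBS. The groups stood well apart for a difference of -0.67 ± 0.08 (1.59-fold lower), on a probe set below the array medians. The limma adjusted p was 0.296. Itgb8, the other activating subunit, lay at -0.31 ± 0.10, and Nrros, which anchors latent TGF-beta on myeloid cells, at -0.36 ± 0.09. Like Itgb6, both were dim, with means between 5 and 6, where all genes had a median of -0.15. Lrrc32, which encodes the latent TGF-beta anchor GARP, lay higher at 7.63 and 7.52 against 7.10 and 7.32, a difference of 0.37 ± 0.12. Ltbp2, of the latent binding protein family, lay at -0.31 ± 0.14 (-0.16 without A-FABP replicate 2). With the trend on signal level removed, Itgb6 lay at -0.52, Nrros at -0.21, Itgb8 and Ltbp2 at -0.17, and Lrrc32 at 0.32.

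Leukocyte and macrophage markers, which include cells that express Nrros, had 7 measured members, of which 2 (Itgam and Ptprc) were lower and 0 higher at the unadjusted threshold. Over all genes 8.24% were lower and 4.81% higher at that threshold. By sign, 5 markers lay below 0 and 2 above, where 47.6% of all genes lay above. Of the 7, 3 had a mean above the highest array median. The mean log2 signal of the 7 markers was 6.57 and 6.51 with A-FABP, against 6.69 and 6.70 with PBS. The sum of these 7 log2 values, which restates that mean, was 46.0 and 45.6 with A-FABP against 46.8 and 46.9 with PBS. Ptprc, the pan-leukocyte gene, reached at most 4.58 on any array, and Adgre1, a macrophage gene, lay between 4.35 and 4.78. Cd68, a lysosomal gene abundant in macrophages, was bright at 12.70 to 12.84. Cd14 and Csf1r, both receptors of the monocyte lineage, had differences of 0.28 and 0.16. Ptprc and Adgre1 had means between 4 and 5, where all genes had a median of -0.11. Itgam and Cd3e had means between 5 and 6, where that median was -0.15. Ptprc, Itgam, Cd3e and Adgre1 had differences of -0.45, -0.34, -0.43 and -0.21. With the trend on signal level removed, these were -0.36, -0.20, -0.29 and -0.09. Cd68 then lay at -0.07, Cd14 at 0.25 and Csf1r at 0.19. The part of these markers in the Nrros difference was not tested.

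Other receptors and accessory receptors had a median difference of 0.02 over 15 genes. At the unadjusted threshold 1 was lower (6.67%) and 0 higher, beside 8.24% and 4.81% of all genes. Bambi, a decoy receptor without a kinase that restrains TGF-beta and BMP signals, was the lower one. It lay at 6.44 and 6.15 with A-FABP and at 6.79 and 6.95 with PBS, a difference of -0.58 ± 0.14 (1.49-fold lower). Eng, the co-receptor endoglin, lay at 0.20 ± 0.08, Tgfbrap1, a receptor-associated protein, at 0.16 ± 0.08, and the activin receptors Acvr1b and Acvr2b at 0.16 ± 0.11 and 0.12 ± 0.08. Acvr1b was at 0.0852 without control replicate 1 and at 0.0906 without A-FABP replicate 2. With the trend on signal level removed, Acvr1b lay at 0.0717 and Tgfbrap1 at 0.0700. Acvr2b lay at 0.18 after median centring, at 0.09 after repeated quantile normalization and at 0.08 without control replicate 2. Eng, Tgfbrap1, Acvr1b and Acvr2b had unadjusted p-values of 0.0637 to 0.226.

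SMAD partners and regulators had a median difference of 0.04 over 22 genes. At the unadjusted threshold 2 were lower (9.09%) and 1 higher (4.55%), beside 8.24% and 4.81% of all genes. The 2 lower ones were the inhibitory SMADs. Smad7, the feedback inhibitor of the type I receptor, lay at 7.78 and 7.79 with A-FABP and at 8.03 and 8.02 with PBS. Its replicates were within 0.01 of each other and the difference was -0.24 ± 0.08. Smad6, which restrains BMP signals, lay at 5.34 and 5.10 with A-FABP and at 5.68 and 5.69 with PBS, a difference of -0.46 ± 0.11. Unlike Smad7, it was read by a probe set below the array medians. Its mean was between 5 and 6, where all genes had a median of -0.15. With the trend on signal level removed, Smad6 lay at -0.31. Skil, which encodes the SMAD repressor SnoN and is itself a target of the pathway, lay the other way at 8.02 and 8.16 against 7.82 and 7.74, a difference of 0.31 ± 0.10. Ldlrad4, a membrane protein that limits SMAD phosphorylation, lay at 0.23 ± 0.09. Ppm1a, a SMAD phosphatase, lay at 0.15 ± 0.08, while its other probe set lay at -0.19, and the brighter one was at 0.0815 with the trend on signal level removed.

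Other ligands and antagonists of the superfamily had a median difference of -0.12 over 14 genes. At the unadjusted threshold 2 were lower (14.3%) and 1 higher (7.14%), beside 8.24% and 4.81% of all genes. Nog, the BMP antagonist noggin, lay at -0.34 ± 0.09 and Bmp7 at -0.32 ± 0.10. Inhba, which encodes the activin A subunit, lay higher at 6.09 and 6.19 with A-FABP against 5.89 and 5.77 with PBS, a difference of 0.31 ± 0.09. Inhbb, the subunit of activin B, lay at -0.32 ± 0.12 and Bmp4 at -0.26 ± 0.11. Inhbb was at -0.20 without control replicate 1 and Bmp4 at -0.17 without A-FABP replicate 1. With the trend on signal level removed, Bmp4 lay at -0.12 and Nog at -0.19. Apart from Bmp7 and Inhbb, these genes had means close to or below the array medians.

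TGF-beta target genes went both ways, with a median difference of -0.08 over 34 genes. The list does not record whether TGF-beta raises or lowers each gene, and activity of the pathway was not tested. At the unadjusted threshold 7 were lower (20.6%) and 2 higher (5.88%), beside 8.24% and 4.81% of all genes. Itgb6, Smad7 and Skil are also in this list. Id2, whose product binds and blocks helix-loop-helix transcription factors, lay at 8.78 and 8.77 with A-FABP and at 9.23 and 9.25 with PBS, a difference of -0.47 ± 0.08 (1.39-fold lower). Id1, its relative and a classic target of the BMP branch, lay at 9.38 and 9.39 against 9.74 and 9.80, a difference of -0.38 ± 0.08. Junb, an AP-1 gene induced by many signals, lay at 9.65 and 9.61 against 10.07 and 10.04, a difference of -0.43 ± 0.08. In these 3 bright genes the groups stood apart by more than the replicates did, a gap built into their choice by low p-values. Il11, a cytokine gene induced by TGF-beta, lay on the other side at 7.30 and 7.13 with A-FABP against 6.81 and 6.57 with PBS, a difference of 0.52 ± 0.13 (1.44-fold higher). Unadjusted limma p-values of these 4 ran from 0.00379 to 0.0158, with an adjusted p of 0.296 for each.

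**Figure D4:**
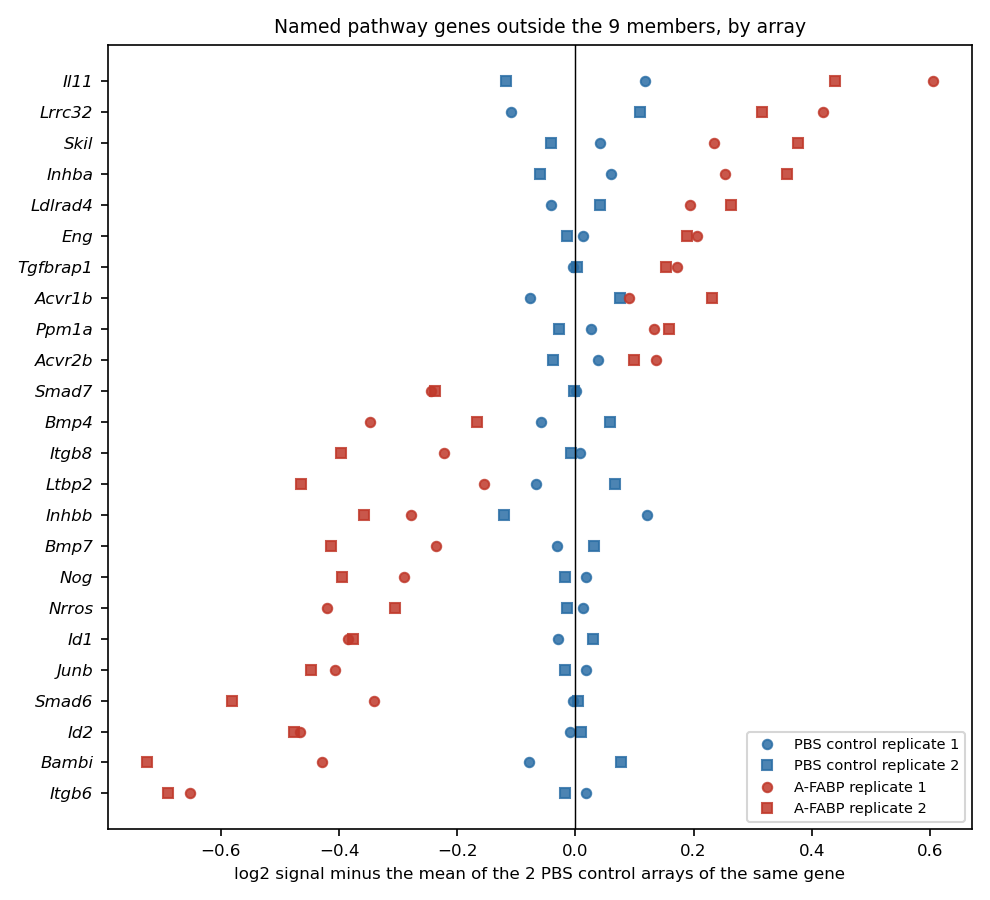
Log2 signal minus the mean of the 2 PBS control arrays (horizontal axis) for the 24 named pathway genes outside the 9 members, with circles for replicate 1, squares for replicate 2, blue for PBS and red for A-FABP. These genes have the lowest p-values of their lists, so a gap between the groups is built into the choice, and 53.5% of all genes have groups that do not overlap. Group differences run from -0.67 on average for Itgb6 to 0.52 for Il11, and none passed the adjusted threshold.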

How the data were processed

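Gene expression was measured on 4 single-colour arrays, 2 of A-FABP treated and 2 of PBS control EO771 cultures, grouped by title. The authors deposited 1 log2 value per probe set and array. The submitters' processing notes name Partek 6.6 and RMA, a method that removes background, brings arrays to one distribution and joins the probes of a set. The genome build was not given in the sources used here. RMA can understate differences at the dim and the bright end. The number of arrays limits the precision.

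The platform annotation named 1 gene for 23521 of 41345 probe sets, several for 1814 and none for 16010. A gene was read by its probe set with the highest mean. Differences were fitted with limma 3.58.1 in R 4.3.3 (lmFit, then eBayes) on the whole table, without a block. Tests were two-sided, with Benjamini-Hochberg adjustment over all probe sets. The fit had 2 residual and 1.91 prior degrees of freedom. It was run on simulated data drawn from its own variance model, without the trend on signal level. That run could check the computation and not whether the model holds for these arrays. The rule for named genes took all members, Fabp4, the 3 genes nearest to the member with the lowest p, and of each list genes past the adjusted threshold or otherwise the 5 with the lowest p. The members and lists were chosen with earlier results of these data known. Alternatives covered scaling, variance moderation, a filter on dim probe sets, repeated rows, the choice of probe set, a replicate block and leaving out each array. Some listed genes are not reported here.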

Additional observations from a re-analysis of the deposited data

How the results depend on the processing

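Over 15 alternatives, 0 members and 0 pathway genes passed the adjusted threshold wherever a test was run. The lowest limma adjusted p was 0.308 for a member and 0.156 for a named pathway gene. Between 7 and 8 members kept a 95% interval inside 1.5-fold. Among members, signs turned in Tgfb1, Tgfb2, Tgfbr2, Tgfbr3, Smad3 and Smad4. After cyclic loess, Tgfb1 lay at -0.0200, Tgfbr3 at -0.0239 and Smad3 at -0.0413. After repeated quantile normalization, Tgfbr3 lay at -0.0147 and Smad3 at -0.0527. With the lowess trend removed, Tgfb1 lay at -0.0158, Tgfbr2 at -0.0113, Tgfbr3 at -0.0223 and Smad3 at -0.0685. After median centring, Smad4 lay at 0.0595. These scalings moved the median of all genes by at most 0.07. With an array left out, Tgfb1 ranged from -0.0209 to 0.0506, Tgfb2 from -0.0225 to 0.0520, Smad3 from -0.0615 to 0.110 and Smad4 from -0.012 to 0.001, and 0 to 1 members had an unadjusted p under 0.05. Of 353 values of named pathway genes under alternatives, 2 turned sign, both of Ppm1a, at -0.0201 with its probe sets averaged and -0.19 with the dimmer one. The count of pathway genes higher at the unadjusted threshold ranged from 2 to 8 beside 4 as deposited, and the lower count from 9 to 17 beside 13, outside the fits with an array left out. The cause of these changes was not tested.

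The labels do not say what same-numbered arrays have in common, and whether they shared a start or a batch was not tested. Deviations of same-numbered arrays from their group means correlated at r = -0.00889 over probe sets. With the replicate block, 0 members were called, Tgfbr1 kept a difference of 0.29 with a limma adjusted p of 0.478, and 2 pathway genes were higher at the unadjusted threshold. Averaging probe sets or taking the dimmest one left the 9 members as they were, since each has 1 probe set.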
